A study of Rattus norvegicus with 12 samples.

Results

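The 8 genes followed here encode the MHC class II antigen presentation machinery, measured in the renal cortex of lean rats, obese rats and obese rats given a sodium-glucose cotransporter 2 (SGLT2) inhibitor. They were Cd74, RT1-Da, RT1-Db1, RT1-Ba, RT1-Bb, RT1-DMa, RT1-DMb and Ciita, taken by name from the 13151 genes of the deposited expression table. All 8 were in the table, and all 8 were among the 11633 genes that passed the filter on low values and were tested. RNA of whole renal cortex from 12 male rats was sequenced at 32 weeks of age, with 4 rats in each of 3 groups. The Zucker lean (ZL) rats were untreated controls. The Zucker fatty (ZF) rats were the untreated obese model, which the study's methods call leptin receptor-deficient and the series text calls leptin-deficient. The ZF-SGLT2i rats were ZF rats that received canagliflozin, which inhibits SGLT2, in their food for 8 weeks at 10 mg/kg/day, starting at 24 weeks of age, with food intake matched to that of untreated ZF rats. The defect of the ZF strain is in the whole animal and not in 1 cell type. The methods describe repeated open kidney biopsies in a cohort of ZL and ZF rats. A separate cohort of ZF rats was randomised to treatment. The methods do not state which cohort the sequenced ZF rats came from. The caption of the study's RNA sequencing figure names the untreated obese group ZF-NT, as the randomised cohort's untreated group is named. ZL rats are described in the biopsied cohort alone, so biopsy and group cannot be told apart in the comparisons with ZL. The kidneys were perfused with saline before they were taken.

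Whole cortex mixes tubular, glomerular, vascular and immune cells, so a change in the number of cells that carry class II and a change in class II RNA per cell cannot be told apart. The label of the tissue was checked against its markers. All 10 proximal tubule markers listed were in the table, with a summed level of 17790.5 to 28448 normalized counts per rat, and all 7 podocyte markers were, with 1260 to 2007 normalized counts, so both compartments of the cortex were present in every library. Reads on genes numbered 8886901 to 12210257 in the ZL rats, 8824980 to 11191377 in the ZF rats and 8914666 to 10293049 in the ZF-SGLT2i rats. The genes followed were well covered, from 5194 to 11038 reads per rat for Cd74 down to 109 to 263 reads for RT1-Bb. A normalized count is a read count that the authors scaled to the size of the library, and it is not divided by the length of the gene, so a ratio between genes or the gene with the most counts in a list refers to counts and not to amounts of RNA.

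Class II molecules are pairs of an alpha and a beta chain that carry peptides from swallowed proteins to the cell surface, where CD4 T cells read them. The invariant chain, Cd74, escorts new pairs to the endosome and blocks their groove until proteases cut it down to a short peptide. DM takes that peptide out and lets others in, and DO holds DM back. In the rat the family is named RT1, with D and B as the classical pairs, and Ciita is the coactivator that turns the whole set on in dendritic cells, B cells, macrophages and, after interferon gamma, in other cells such as kidney tubule and endothelium.

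Ciita does not bind DNA itself. It docks on a complex that sits on the promoter, in which RFX holds the X box and NF-Y holds the Y box, an inverted CCAAT motif. These boxes are shown because the choice by name did not use them, and 3 of the members hold both while 3 hold 1 of them. The RefSeq promoter windows on GRCr8, with 250 bases before each start, had an entry for 6 of the 8 members, and RT1-DMb and Ciita had none. In the stretches that follow, written along the strand of the gene, capitals mark GCAAC (letters of the X box) and TGATTGG (the Y box).
RT1-Da, chr20:4515318-4515385, plus strand: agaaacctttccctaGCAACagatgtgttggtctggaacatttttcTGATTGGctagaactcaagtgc
RT1-Db1, chr20:4560223-4560289, minus strand: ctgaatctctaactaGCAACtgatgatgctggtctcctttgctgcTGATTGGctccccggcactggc
RT1-Ba, chr20:4576966-4577033, plus strand: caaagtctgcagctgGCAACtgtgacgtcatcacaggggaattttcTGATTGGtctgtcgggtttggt
RT1-DOb, chr20:4627587-4627651, minus strand: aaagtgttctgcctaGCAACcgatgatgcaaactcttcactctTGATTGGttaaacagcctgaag
RT1-Bb, chr20:4604160-4604231, minus strand: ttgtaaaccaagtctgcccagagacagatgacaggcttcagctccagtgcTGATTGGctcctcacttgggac
RT1-DMa, chr20:4712380-4712451, minus strand: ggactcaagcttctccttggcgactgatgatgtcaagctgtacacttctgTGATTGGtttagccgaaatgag
Cd74, chr18:56527121-56527195, plus strand: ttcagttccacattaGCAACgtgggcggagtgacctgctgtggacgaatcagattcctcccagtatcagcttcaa

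Both motifs, with GCAAC first and 15 to 30 bases between them on the same strand, were found in 38 of 33469 promoter windows, or 0.114%. They were searched on both strands and do not overlap. On its own GCAAC was in 29.5% of the windows and TGATTGG in 6.42%. Of the 9 RT1 class II genes with an entry, 7 held the arrangement, and their spacing was 23 to 26 bases. RT1-Da, RT1-Db1 and RT1-Ba were among these 7, as was RT1-DOb, which holds DM back with its partner. RT1-Bb and RT1-DMa had the Y box letters alone, and Cd74 had the X box letters alone. A match of letters is a description of the window and not a binding site that was measured.

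The members lie on 3 chromosomes. The order of the annotated genes on chromosome 20 runs RT1-Da, RT1-Db2, RT1-Db1, RT1-Ba, RT1-Bb, RT1-DOb, then the class I peptide genes Tap2, Psmb8, Tap1 and Psmb9, and then RT1-DMb and RT1-DMa. Cd74 is on chromosome 18 and Ciita on chromosome 10.

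A pair of libraries stood apart in these genes. ZF rat 5 was the lowest ZF rat in 8 of 8 members, and ZF-SGLT2i rat 6 was the lowest ZF-SGLT2i rat in 7 of 8. They were also the shallowest libraries of their groups, with 8824980 and 8914666 reads on genes. The shallowest ZL library, rat 3 with 8886901 reads, was the lowest ZL rat in 4 of 8. The part that depth or any other property of these libraries had in the values was not tested, and the fold changes of the members are also given without them, after the last member.

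No member was called in obese against lean rats, no member in treated against untreated obese rats, and 1 member, RT1-DMa, in treated obese against lean rats. A gene was called when its adjusted p in limma, a linear model fitted over all tested genes, was under 0.05. Of all tested genes, 18.8% were called in the comparison of ZF with ZL, 3.15% when ZF-SGLT2i was set against ZF and 27.4% when it was set against ZL. The groups did not overlap for 0 members in the first comparison, 0 in the second and 1 in the third, where 19.0%, 11.2% and 28.0% of all tested genes did not overlap. All 8 fold changes in ZF against ZL were above 0, with a median of 0.21 on the log2 scale beside -0.01 for all genes, but none of them passed the test, and RT1-DMb, at 0.01, was on either side of 0 depending on the analysis. In ZF-SGLT2i against ZF 6 of 8 were below 0 (5 of 8 with quantile normalization, where Cd74 was just above it), with a median of -0.14 beside 0.01 for all genes. The comparisons share the ZF rats or the ZL rats, so their values are not independent of each other.

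At an unadjusted p under 0.05 the members numbered 2, 2 and 1 in these 3 comparisons, of 3848, 1996 and 4566 such genes in all. The count tests edgeR and DESeq2 each called 1 member, RT1-DMa, in ZF against ZL. A fit with the rat number as a term called Cd74, RT1-Da, RT1-Db1 and RT1-Ba in that comparison. In ZF-SGLT2i against ZL it called Cd74, RT1-Ba and RT1-DMb beside RT1-DMa. Rat numbers do not pair the rats, as the last section describes.

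**Figure D1:**
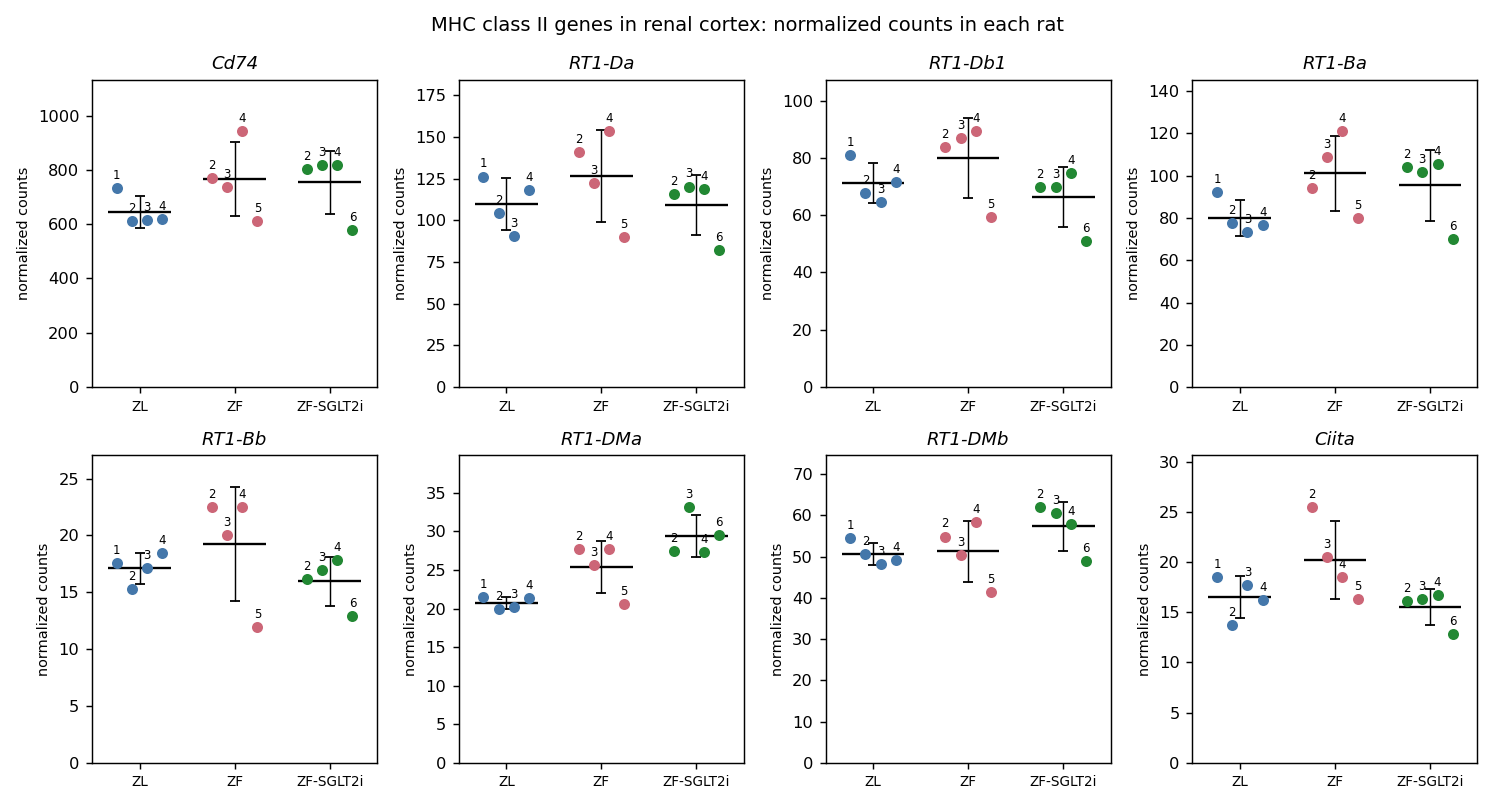
Normalized counts of the 8 genes in each rat, 1 panel per gene with its own axis from 0. Points are rats with their numbers, lines are group means and bars are ± SD (n = 4). ZF rat 5 is the lowest ZF point in every panel, and only RT1-DMa has all ZF-SGLT2i points above all ZL points.

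Cd74 is the invariant chain. Its normalized counts were 734, 612, 614 and 619 in ZL rats 1 to 4, 769.8, 736, 943 and 613 in ZF rats 2 to 5, and 803, 817, 817 and 579 in ZF-SGLT2i rats 2, 3, 4 and 6. ZF rat 5 lay among the ZL rats and ZF-SGLT2i rat 6 lay below all of them, so the groups overlapped, although the other 3 rats of each obese group were above every ZL rat. ZL rats averaged 645 ± 59.7, ZF rats 766 ± 136 and ZF-SGLT2i rats 754 ± 117 (SD, n = 4). The log2 fold change was 0.23 in ZF against ZL (95% confidence interval -0.05 to 0.52, adjusted p = 0.244) and -0.02 in ZF-SGLT2i against ZF (-0.31 to 0.27, adjusted p = 0.961). In ZF-SGLT2i against ZL it was 0.22. With quantile normalization Cd74 was called against ZL in both obese groups, at 0.45 in ZF (adjusted p = 0.011) and 0.45 in ZF-SGLT2i (adjusted p = 0.00656). The intervals leave room for a modest rise with obesity and for a modest change either way with treatment.

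The D pair is the rat counterpart of human HLA-DR. RT1-Da, its alpha chain, had normalized counts of 126, 105, 90.8 and 118 in the ZL rats, 141, 123, 154 and 89.96 in the ZF rats, and 116, 120.3, 119 and 82.4 in the ZF-SGLT2i rats, in the same order of rats. The range of the ZF rats enclosed all the others but ZF-SGLT2i rat 6. RT1-Db1, its beta chain, had 81.0, 67.7, 64.6 and 71.6 in the ZL rats, 83.9, 87.1, 89.4 and 59.2 in the ZF rats, and 69.98, 69.9, 74.6 and 50.9 in the ZF-SGLT2i rats. Here 3 of the 4 ZF rats were the highest of all 12 and ZF rat 5 was lower than every ZL rat. In ZF against ZL the log2 fold change was 0.19 for RT1-Da (adjusted p = 0.46) and 0.15 for RT1-Db1 (adjusted p = 0.484), and in ZF-SGLT2i against ZF it was -0.20 for RT1-Da (adjusted p = 0.572) and -0.26 for RT1-Db1 (adjusted p = 0.356). The treated rats ended at the level of the lean ones or near it, with a log2 difference from ZL of -0.02 (95% interval -0.36 to 0.33) for RT1-Da and -0.11 (-0.40 to 0.18) for RT1-Db1. RT1-Db2, the neighbour of RT1-Db1, had no row in the table, and whether its reads were counted at RT1-Db1 was not tested.

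The B pair is the counterpart of HLA-DQ. RT1-Ba, the alpha chain, had normalized counts of 92.4, 77.8, 73.5 and 76.6 in the ZL rats, 94.4, 109, 121 and 80.1 in the ZF rats, and 104, 102, 106 and 70.2 in the ZF-SGLT2i rats. All ZF rats but rat 5 were above every ZL rat, and so were all ZF-SGLT2i rats but rat 6. Its log2 fold change in ZF against ZL, 0.32 (95% interval 0.02 to 0.62), was the largest among the members in this comparison, and it did not pass the test (adjusted p = 0.128). RT1-Bb, the beta chain, had 17.6, 15.3, 17.1 and 18.5 in the ZL rats, 22.5, 20.04, 22.5 and 11.9 in the ZF rats, and 16.2, 17.0, 17.8 and 12.9 in the ZF-SGLT2i rats. Here the ZF group held both the highest rats and the lowest. Its log2 fold change was 0.12 in ZF against ZL (adjusted p = 0.652) and -0.22 in ZF-SGLT2i against ZF (adjusted p = 0.536). Without ZF rat 5 the latter was -0.43 with an adjusted p of 0.0429, and without ZF-SGLT2i rat 6 RT1-Ba was called in ZF-SGLT2i against ZL at 0.38 with an adjusted p of 0.0435.

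DM is the peptide editor of the endosome. RT1-DMa, its alpha chain, had normalized counts of 21.4, 19.9, 20.2 and 21.4 in the ZL rats, 27.7, 25.7, 27.8 and 20.6 in the ZF rats, and 27.4, 33.2, 27.4 and 29.5 in the ZF-SGLT2i rats. The 4 ZL rats lay close together, 3 of 4 ZF rats were above them, and all 4 ZF-SGLT2i rats were. ZL rats averaged 20.7 ± 0.779, ZF rats 25.4 ± 3.39 and ZF-SGLT2i rats 29.4 ± 2.74 (SD, n = 4). RT1-DMa was higher in ZF-SGLT2i than in ZL by 0.48 on the log2 scale (standard error 0.10, adjusted p = 0.00265), and an exact permutation test of the 8 rats gave p = 0.0286, the smallest that 4 rats against 4 allow. This call held in 23 of 23 alternative analyses, with an adjusted p between 9.76e-05 and 0.0173.

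The steps between the groups were less certain. In ZF against ZL RT1-DMa differed by 0.27 (95% interval 0.07 to 0.48, adjusted p = 0.0617), and in ZF-SGLT2i against ZF by 0.21 (0.00 to 0.41, adjusted p = 0.286). Without ZF rat 5 the first of these became 0.37, with an adjusted p of 0.0114. ZF-SGLT2i rat 6, which was the lowest of its group in the 7 other members, was the second highest of its group in this gene.

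RT1-DMb, the beta chain of the same pair, had normalized counts of 54.4, 50.6, 48.1 and 49.2 in the ZL rats, 54.8, 50.3, 58.5 and 41.4 in the ZF rats, and 62.1, 60.6, 57.9 and 48.8 in the ZF-SGLT2i rats. The range of the ZF rats enclosed that of the ZL rats, and 3 of 4 treated rats were above all the ZL rats. The log2 fold change was 0.01 in ZF against ZL (95% interval -0.21 to 0.22, adjusted p = 0.962) and 0.17 in ZF-SGLT2i against ZL (-0.04 to 0.39, adjusted p = 0.22). The ratio of RT1-DMa to RT1-DMb counts within a rat was 0.394 to 0.434 in the ZL rats, 0.475 to 0.510 in the ZF rats and 0.442 to 0.605 in the ZF-SGLT2i rats. Neither obese group overlapped the ZL rats in this ratio. Each difference had an exact permutation p of 0.0286, the smallest that 4 rats against 4 allow. After adjustment over the 27 ratio comparisons made it was 0.0857 and did not pass. Most of the 27 would have to reach that smallest p for any to pass, so not passing says little about a single ratio. The classical chains gave differences with the same p. The ratio of RT1-Ba to RT1-Bb was 5.95 ± 0.413 in the ZF-SGLT2i rats and 4.70 ± 0.561 in the ZL rats, and that of RT1-Da to RT1-Ba was 1.148 ± 0.0368 and 1.37 ± 0.128 (SD, n = 4). Neither ratio overlapped between these groups, and neither passed after adjustment, under the same limit.

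DO, the inhibitor of DM, was in the table through both chains, at low levels. RT1-DOb, its beta chain, had normalized counts of 2.24, 3.12, 2.95 and 2.23 in the ZL rats, 3.45, 3.41, 2.99 and 2.51 in the ZF rats, and 1.81, 1.31, 1.51 and 1.34 in the ZF-SGLT2i rats. Every treated rat was below every untreated rat, lean or obese. RT1-DOb was lower in ZF-SGLT2i than in ZF by a log2 difference of -0.71 (standard error 0.14, adjusted p = 0.0127) and than in ZL by -0.54 (standard error 0.14, adjusted p = 0.0104), and its difference between ZF and ZL, 0.17, was not called (adjusted p = 0.413). The exact permutation p was 0.0286 for each of the first 2 differences. Only 12 to 36 reads per rat lay behind these values, so each single rat has a wide counting error. The size of the difference depended on the pseudocount, since the level was low. With a pseudocount of 0.1 in place of 1 it was -1.003 against ZF and -0.78 against ZL, with a pseudocount of 5 it was -0.32 and -0.23, and in edgeR on the reads it was -1.05 and -0.81. The call against ZL held in 22 of 22 alternatives that kept the gene and the call against ZF in 21 of 22, the exception being the fit with the rat number as a term (adjusted p = 0.0549).

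RT1-DOa, the alpha chain of DO, ran from 0.303 to 1.44 normalized counts, or 3 to 16 reads, and RT1-Ha from 0 to 5 reads. Both were below the filter and were not tested. RT1-Db2 and RT1-Hb had no row.

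**Figure D2:**
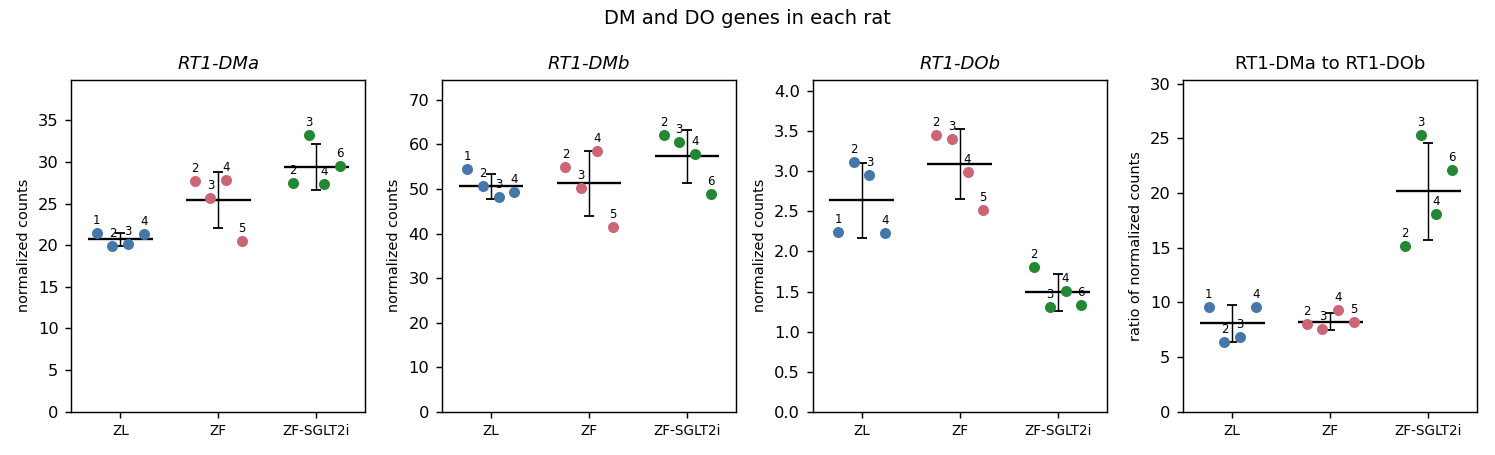
Normalized counts of RT1-DMa, RT1-DMb and RT1-DOb and the ratio of RT1-DMa to RT1-DOb in each rat. Points are rats with their numbers, lines are means and bars are ± SD (n = 4), with all axes from 0. The 4 ZF-SGLT2i rats are the lowest in RT1-DOb and the highest in the ratio.

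The ratio of RT1-DMa to RT1-DOb counts was 6.39 to 9.56 in the ZL rats, 7.53 to 9.29 in the ZF rats and 15.2 to 25.3 in the ZF-SGLT2i rats. The treated rats were apart from both untreated groups, and the untreated groups were not apart from each other. The exact permutation p was 0.0286 against either group and 0.0857 after adjustment over the 27 ratio comparisons. The limit given for the ratio of RT1-DMa to RT1-DMb holds here too. The ratio of RT1-DMa to RT1-Da counts also set the treated rats apart from both untreated groups, with the same p before and after adjustment. It was 0.170 to 0.222 in the ZL rats, 0.181 to 0.228 in the ZF rats and 0.231 to 0.359 in the ZF-SGLT2i rats. Within the treated rats the ratio of Cd74 to RT1-Da was tight, 6.79 to 7.03, beside 5.23 to 6.77 in the ZL rats and 5.46 to 6.82 in the ZF rats.

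Ciita, the coactivator, had normalized counts of 18.5, 13.7, 17.7 and 16.2 in the ZL rats, 25.5, 20.4, 18.5 and 16.3 in the ZF rats, and 16.1, 16.4, 16.7 and 12.8 in the ZF-SGLT2i rats. ZF rats 2, 3 and 4 were above all lean rats, rat 4 by a narrow margin, and the treated rats were within or below the lean range. ZL rats averaged 16.5 ± 2.11, ZF rats 20.2 ± 3.93 and ZF-SGLT2i rats 15.5 ± 1.80 (SD, n = 4). Of all members Ciita had the largest difference between treated and untreated obese rats, with a log2 fold change of -0.35 (95% interval -0.64 to -0.07). It did not pass the test (adjusted p = 0.183). Its log2 fold change in ZF against ZL was 0.27 (adjusted p = 0.179) and in ZF-SGLT2i against ZL -0.09 (adjusted p = 0.672).

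Without ZF rat 5 the log2 fold changes in ZF against ZL were 0.34 for Cd74, 0.34 for RT1-Da, 0.29 for RT1-Db1, 0.43 for RT1-Ba, 0.33 for RT1-Bb, 0.37 for RT1-DMa, 0.11 for RT1-DMb and 0.36 for Ciita. RT1-DMa was the sole call among them. In ZF-SGLT2i against ZF, without the same rat, they were -0.12 for Cd74, -0.36 for RT1-Da, -0.40 for RT1-Db1, -0.19 for RT1-Ba, -0.43 for RT1-Bb, 0.11 for RT1-DMa, 0.067 for RT1-DMb and -0.44 for Ciita, and RT1-Bb was the sole call. These values were farther from 0 than with all 12 rats, apart from those of the DM genes in ZF-SGLT2i against ZF, which were nearer to it.

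Leaving out ZF rat 4 or ZF rat 2 moved several of the ZF against ZL values the other way. Without ZF rat 4 they were 0.13 for Cd74, 0.085 for RT1-Da, 0.091 for RT1-Db1, 0.038 for RT1-Bb and -0.057 for RT1-DMb, while Ciita was at 0.30. Without ZF rat 2 they were 0.037 for RT1-Bb, -0.026 for RT1-DMb and 0.15 for Ciita, while RT1-Ba was at 0.35. No member was called in ZF against ZL without either of these rats, so for the members named here the size of the difference between obese and lean rats rested on which ZF rats were included.

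Without ZF-SGLT2i rat 6 the log2 fold changes in ZF-SGLT2i against ZF were 0.10 for Cd74, -0.073 for RT1-Da, -0.14 for RT1-Db1, 0.054 for RT1-Ba, -0.13 for RT1-Bb, 0.20 for RT1-DMa, 0.24 for RT1-DMb and -0.27 for Ciita, with no call. In ZF-SGLT2i against ZL they were 0.34 for Cd74, 0.11 for RT1-Da, 0.0092 for RT1-Db1, 0.38 for RT1-Ba, -0.0082 for RT1-Bb, 0.48 for RT1-DMa, 0.25 for RT1-DMb and -0.0025 for Ciita, and RT1-Ba and RT1-DMa were called.

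**Figure D3:**
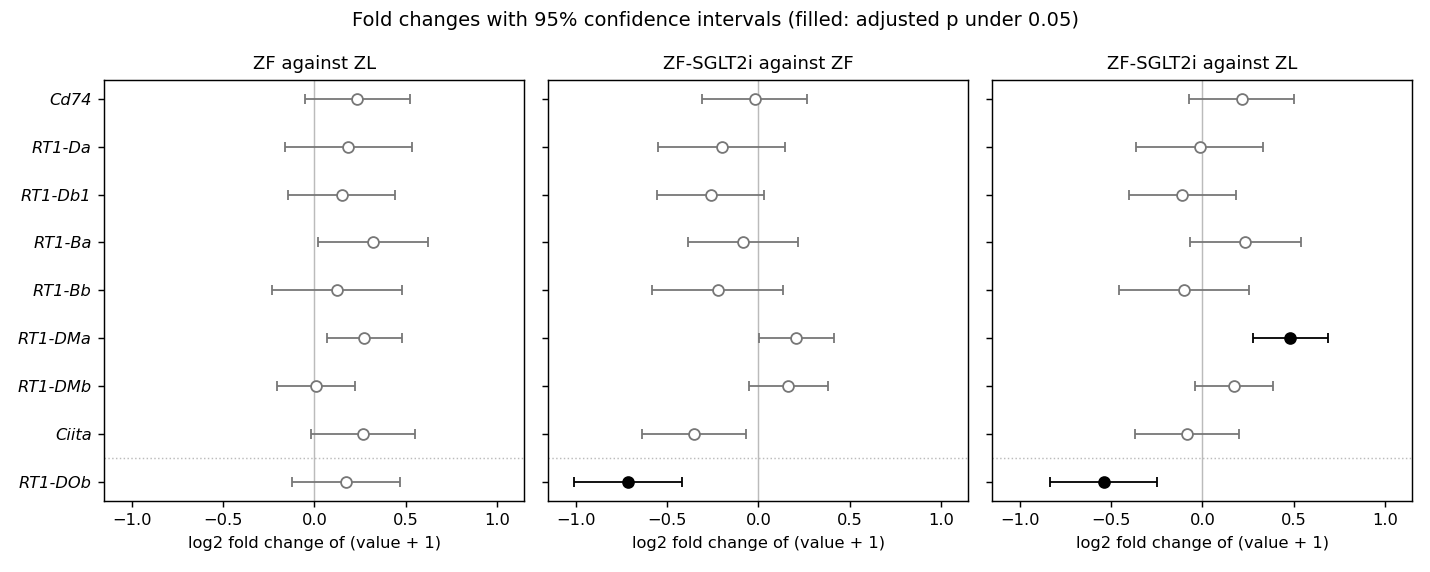
Log2 fold changes of the 8 genes and of RT1-DOb (under the dotted line) in the 3 comparisons. Points are limma estimates on log2(value + 1), bars are 95% confidence intervals, and filled points have an adjusted p under 0.05. RT1-DMa at 0.48 in ZF-SGLT2i against ZL and RT1-DOb at -0.71 and -0.54 are the filled points.

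The members varied together from rat to rat. With each value taken as a deviation from the mean of its group, the Pearson correlation between members over the 12 rats ran from 0.402 to 0.949 in the 28 pairs, with a median of 0.769. Over the plain levels it ran from 0.105 to 0.956, with a median of 0.661. The highest pair on both scales was Cd74 with RT1-Ba, and the lowest pairs held RT1-DMa, at 0.402 with RT1-Ba for the deviations and 0.105 with Ciita for the levels. These points share libraries and their depths, and the coefficients are given as a description.

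ZF rat 4 was the highest of its group in 6 of 8 members and ZL rat 1 in 7 of 8. The median deviation of the members was -0.31 in ZF rat 5 and -0.32 in ZF-SGLT2i rat 6 on the log2 scale, and between -0.07 and 0.23 in the other rats. The spread within a group differed accordingly. The coefficient of variation of the 8 genes was 3.76% to 14.2% in the ZL rats, 13.4% to 26.1% in the ZF rats and 9.34% to 17.7% in the ZF-SGLT2i rats.

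**Figure D4:**
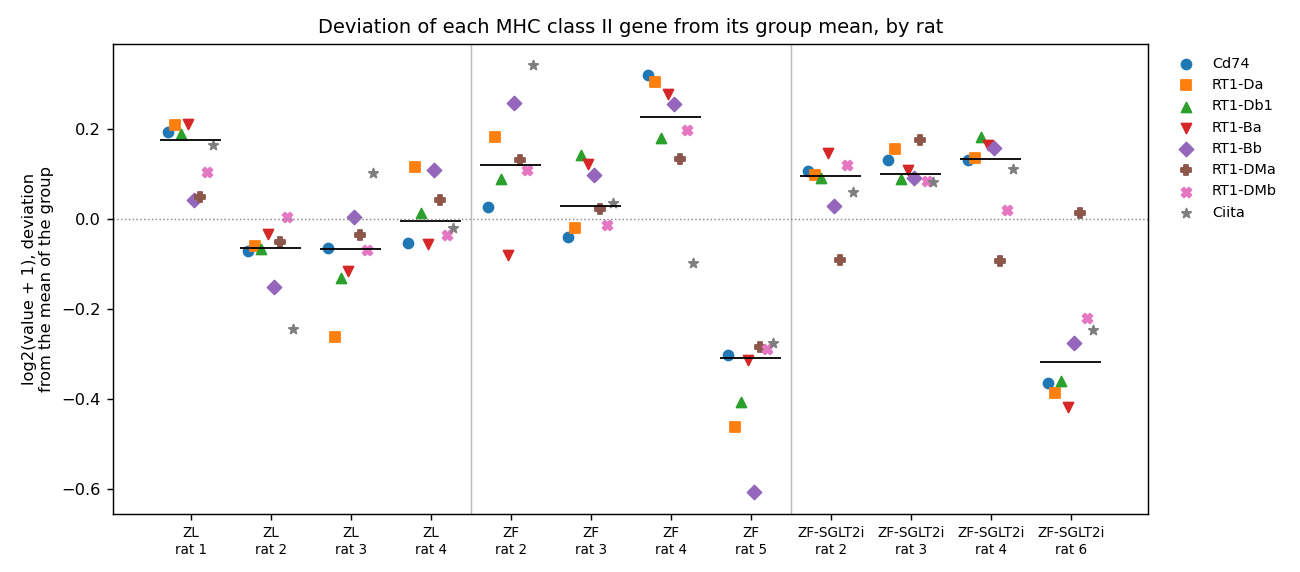
Deviation of each of the 8 genes from the mean of its group, on log2(value + 1), in each of the 12 rats. Symbols are genes, and the short lines are medians over the genes. In ZF rat 5 all 8 symbols are below 0, and in ZF-SGLT2i rat 6 all but RT1-DMa are.

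Among the genes outside the list whose levels most resembled the mean standardized level of the members over the 12 rats were Prcp (Pearson r = 0.895), Pes1 (0.887), Vwa5a (0.872), Litaf (0.863), Icam1 (0.852), Gngt2 (0.843), Ifngr2 (0.842), Retsat (0.825) and Timd2 (0.825). Of 11625 genes, 25 reached an r of 0.8, and none reached 0.9. Icam1, the adhesion molecule on antigen-presenting and endothelial cells, and Ifngr2, a chain of the interferon gamma receptor, are known in immune signalling. For the deviations from group means the r of the same genes was 0.805 (Ifngr2) to 0.934 (Retsat), and 191 genes, or 1.64%, reached 0.8. The members themselves, which make up the mean, ran from 0.549 (RT1-DMa) to 0.934 (Cd74).

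The factors that hold Ciita at the promoter were measured too. Of 12 listed promoter factors 10 were tested, and 1 was called in any comparison. This was Rfx5, the DNA-binding subunit of RFX, which rose in ZF against ZL by 0.24 on the log2 scale (adjusted p = 0.0266), from 36.8 ± 2.97 to 43.5 ± 2.14 normalized counts (SD, n = 4). In ZF against ZL 18.8% of all tested genes were called. In the treated rats Rfx5 was at 39.4 ± 1.70, and neither of their comparisons was called. With quantile normalization 2 promoter factors were called higher and 1 lower in ZF-SGLT2i against ZL. The other RFX subunits had log2 fold changes in ZF against ZL of 0.14 (Rfxap) and 0.11 (Rfxank), the NF-Y subunits of -0.08 (Nfya), -0.13 (Nfyb) and -0.08 (Nfyc), and Creb1, which binds the X2 element, of -0.18. None of these passed the test in ZF against ZL. The median over the 10 genes was -0.01, 0.02 and 0.03 in the 3 comparisons, close to that of all genes.

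Interferon gamma is the classical inducer of Ciita outside the professional cells. Of 13 tested genes of its pathway 11 had a fold change above 0 in ZF against ZL, with a median of 0.18. In that comparison 1 was called, beside 18.8% of all tested genes. Cxcl10, a chemokine induced by interferon, rose by 0.77 (adjusted p = 0.0409), and its highest rat, ZF rat 3 at 15.9 normalized counts, was not the rat with the highest class II genes. Cxcl9, another chemokine of the list, went the other way on 0 to 12 reads per rat and was not tested. Its mean was 0.614 normalized counts in the ZL rats, 0.305 in the ZF rats and 0.172 in the ZF-SGLT2i rats. All treated rats were below all ZL rats in Cxcl9, where 28.0% of all tested genes did not overlap. The receptor chain Ifngr1 differed in ZF against ZL by 0.23 (adjusted p = 0.0887), and the transcription factor Irf1 by 0.35 (adjusted p = 0.13). In ZF-SGLT2i against ZL Ifngr1 (0.31, adjusted p = 0.019) and Irf9 (0.47, adjusted p = 0.0171) were called, beside 27.4% of all tested genes. In ZF-SGLT2i against ZF none of the 13 was. The ligand gene Ifng was not among the genes listed, and the part that interferon gamma had in the class II levels was not tested.

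Of 10 tested genes of class II processing and loading outside the members none was called in ZF against ZL (1 with quantile normalization) or in ZF-SGLT2i against ZF. In ZF-SGLT2i against ZL 1 was called (2 with quantile normalization), beside 27.4% of all tested genes. Ctsl, the endosomal protease that trims the invariant chain in some cells, was lower there by a log2 difference of -0.82 (adjusted p = 0.00249). It was at 401 to 589 normalized counts in the treated rats and 760 to 1092 in the lean rats. Proximal tubule also makes cathepsins, so these counts are not those of antigen-presenting cells alone. Ctsb, the gene of this list with the most counts, had a log2 fold change of 0.04 in the same comparison.

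The class I genes present peptides from inside the cell and share the RT1 region. Of 23 tested, 4 were called higher and 2 lower in ZF against ZL, where 18.8% of all tested genes were called. Among the higher were RT1-S3 (0.60, adjusted p = 0.0281), the peptide transporter Tap1 (0.55, adjusted p = 0.0309) and the immunoproteasome subunit Psmb8 (0.55, adjusted p = 0.0359), and the lower were the chaperones Canx (-0.28, adjusted p = 0.0165) and Calr (-0.25, adjusted p = 0.0238), which serve many other proteins as well. With quantile normalization 4 were called higher and 0 lower. Tap1 and Psmb8 lie between RT1-DOb and RT1-DMb in gene order. In ZF-SGLT2i against ZF 1 of 23 was called, Calr (-0.31, adjusted p = 0.0264), and in ZF-SGLT2i against ZL 4 were called (2 with quantile normalization), all lower, B2m at -0.55 (adjusted p = 0.00491) among them, where 27.4% of all tested genes were called. Of 4 tested co-stimulation genes Icam1 was called in ZF against ZL (0.52, adjusted p = 0.0298), and none was called in the other comparisons, apart from 1 lower in ZF-SGLT2i against ZF with quantile normalization.

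Markers of cells that carry class II were set beside the members. All 15 macrophage markers were in the table. Their summed level was 237 to 317 normalized counts in the ZL rats, 318 to 438 in the ZF rats and 290.5 to 501 in the ZF-SGLT2i rats. Each ZF rat was above each ZL rat, by a narrow margin, with the lowest ZF rat at 318 and the highest ZL rat at 317. All 14 tested had a fold change above 0 in ZF against ZL, with a median of 0.36. The co-receptor Cd14 (0.57, adjusted p = 0.0171) was the 1 called (2 with quantile normalization), where 18.8% of all tested genes were called. Lyz2, the macrophage marker with the most counts, had a log2 fold change of 0.59 (adjusted p = 0.0532). Cd163 was under 1 in every rat. In ZF-SGLT2i against ZF 13 of the 14 were below 0 (12 with quantile normalization) and none was called. In ZF-SGLT2i against ZL 10 were above 0 and 4 below it, with Cd68 the lowest at -0.25 (adjusted p = 0.388). Cd14 (0.50, adjusted p = 0.0233) and Mertk (0.36, adjusted p = 0.00964) were called there, beside 27.4% of all tested genes.

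The macrophage sum and the class II sum did not follow each other in every rat. ZF rat 5 was the lowest ZF rat in both. Among the treated rats, rat 6 had the lowest class II sum, 887 normalized counts beside 1215 to 1236 in the others, and its macrophage sum, 339, lay in the middle of the group. ZF-SGLT2i rat 2 had the highest macrophage sum of all, 501, with a class II sum of 1215. The part that the number of macrophages had in the class II levels was not tested.

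**Figure D5:**
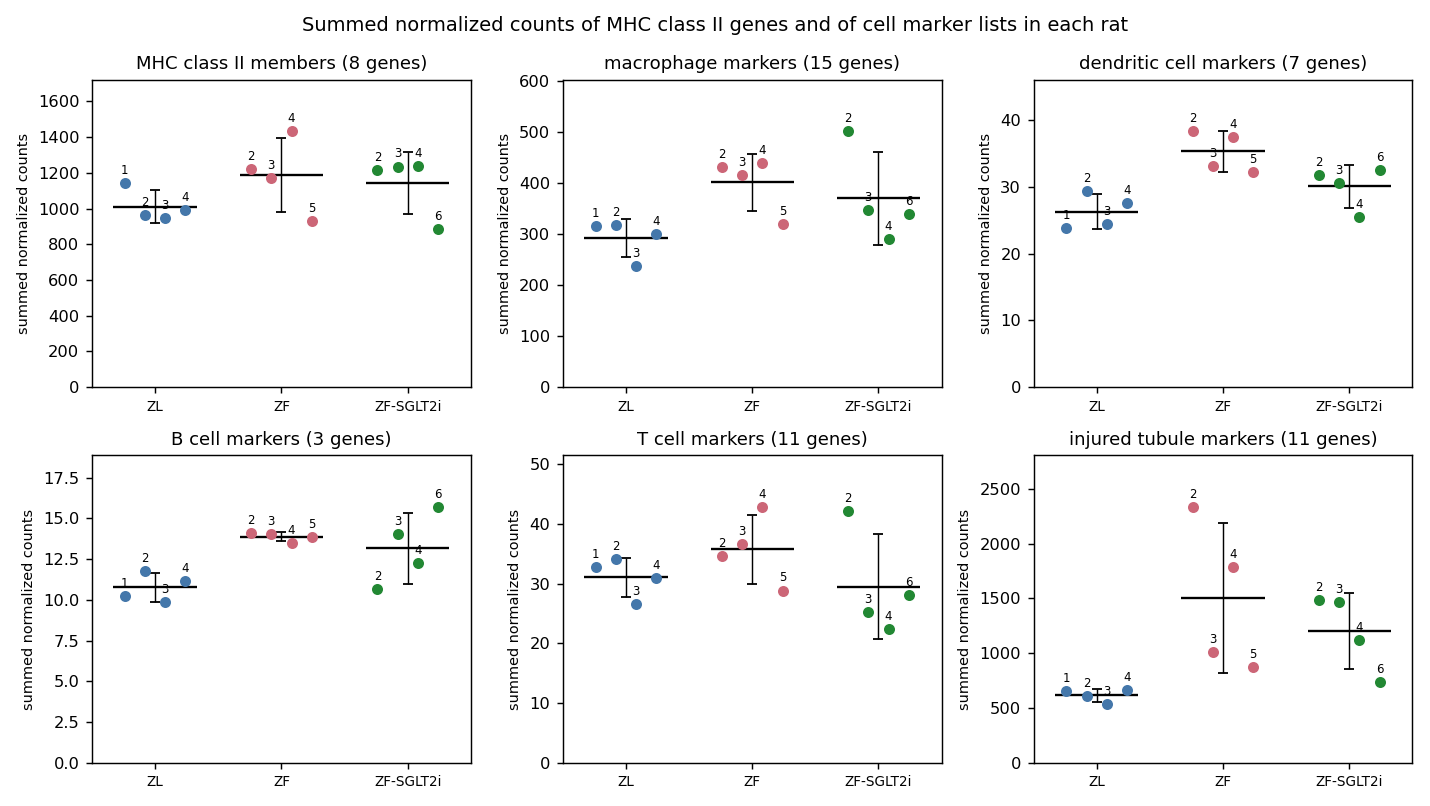
Summed normalized counts of the 8 class II genes and of marker lists for 5 kinds of cell in each rat, with all axes from 0. Points are rats with their numbers, lines are means and bars are ± SD (n = 4). In the class II panel ZF rat 5 and ZF-SGLT2i rat 6 are low, and the macrophage panel has ZF-SGLT2i rat 2 at 501.

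Of 10 dendritic cell markers 7 were in the table and 5 were tested. All 5 were above 0 in ZF against ZL, with a median of 0.25, and all 5 below 0 in ZF-SGLT2i against ZF, with a median of -0.13, and none was called in any comparison. The summed level was 23.8 to 29.4 in the ZL rats, 32.2 to 38.4 in the ZF rats and 25.5 to 32.5 in the ZF-SGLT2i rats. The marker with the most counts was Zbtb46, which endothelium also expresses. Xcr1, a receptor of the cross-presenting subset, was at 0.656 to 2.00 normalized counts in the ZF rats and under 1 in all other rats, and Ccr7 was under 1 in every rat. Batf3, Itgax and Siglech had no row.

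B cells were barely visible. Of 9 markers 3 were in the table, and Ms4a1, Cd79a, Cd79b, Pax5 and Jchain were among those with no row. Cd22 and Blk were under 1 in every rat, and the summed level of the list, 9.87 to 15.7 normalized counts, came mostly from Ebf1, which other cells of the kidney also express. Ebf1, the 1 marker of the list that was tested, was not called in any comparison. Its log2 fold change in ZF-SGLT2i against ZF was -0.01. Cd22 and Blk were too low for the fit over all genes, and both were lower in treated than in untreated obese rats, as RT1-DOb was. Cd22 was at 0.702 to 0.959 normalized counts in the ZF rats (7 to 11 reads) and 0.286 to 0.404 in the ZF-SGLT2i rats (3 to 4 reads), without overlap. Blk was at 0.513 to 0.767 in the ZF rats and 0.334 to 0.476 in the ZF-SGLT2i rats, also without overlap. The exact permutation p of each, not adjusted, was 0.0286, in a comparison where 11.2% of all tested genes did not overlap. Against ZL the treated rats overlapped in both genes, while RT1-DOb did not overlap there. Blk was also higher in the ZF rats than in the ZL rats, at 0.113 to 0.449, without overlap. In that comparison 19.0% of all tested genes did not overlap, and RT1-DOb was not called. DO is best known from B cells, and the part that the number of B cells had in the fall of RT1-DOb was not tested.

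T cell markers, the receptors' side of the encounter, were near the floor. Of 13 listed 11 were in the table and 5 were tested, and none was called in any comparison, apart from 2 lower in ZF-SGLT2i against ZL with quantile normalization. Cd3d, Cd3e, Cd3g, Cd8b and Lag3 were under 1 in every rat. Among these Cd3e was at 0.227 to 0.538 normalized counts in the ZL rats, 0.702 to 0.984 in the ZF rats and 0.201 to 0.571 in the ZF-SGLT2i rats, so that the treated rats were apart from the ZF rats and overlapped the ZL rats. Between the obese groups the other 4 overlapped, with lower means of Cd3d and Cd3g and higher means of Cd8b and Lag3 in the treated rats. Cd4, the marker with the most counts, is also made by rat macrophages, and it was at 12.0 to 19.9 normalized counts in the ZL rats, 16.8 to 28.3 in the ZF rats and 12.9 to 30.1 in the ZF-SGLT2i rats.

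Resident cells can also carry class II. Of 11 endothelial markers 3 were called higher in ZF against ZL (5 with quantile normalization), Egfl7 (0.50, adjusted p = 0.0205), Tie1 (0.31, adjusted p = 0.0196) and Eng (0.31, adjusted p = 0.0362). None was called in ZF-SGLT2i against ZF, and 3 were called higher in ZF-SGLT2i against ZL, with Ehd3 at 0.87 (adjusted p = 0.0075). Kdr, the endothelial marker with the most counts, was not called. Of 7 podocyte markers 4 were called higher in each obese group against ZL and none between the obese groups. The 10 proximal tubule markers had 2 called higher and 3 lower in ZF against ZL (2 and 1 with quantile normalization). Over all tested genes 18.8% were called in ZF against ZL, 3.15% in ZF-SGLT2i against ZF and 27.4% in ZF-SGLT2i against ZL. The endothelial calls in ZF-SGLT2i against ZL were near that share.

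Fold changes were larger among markers of injured tubule. The 11 tested had a median log2 fold change of 1.04 in ZF against ZL, and 8 were called higher, beside 18.8% of all tested genes. When ZF-SGLT2i was set against ZL 7 were called higher and 1 lower, Vcam1 (-0.50, adjusted p = 0.0339), beside 27.4% of all tested genes. Havcr1, the injury molecule KIM-1, was higher in ZF than in ZL by 3.01 (adjusted p = 0.00376) and Spp1, osteopontin, by 1.98 (adjusted p = 0.0115). In ZF-SGLT2i against ZF the sole call was Vcam1, lower by a log2 difference of -0.67 (adjusted p = 0.0387). Havcr1 was at 52.3, 14.6, 32.1 and 7.32 normalized counts in ZF rats 2 to 5 and at 21.9, 16.7, 13.4 and 2.34 in ZF-SGLT2i rats 2, 3, 4 and 6. The rats with the lowest class II genes, ZF rat 5 and ZF-SGLT2i rat 6, were also those with the least Havcr1 and Spp1 in their groups, and the part that tubular injury had in their class II levels was not tested.

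Blood left in the tissue was read from 7 markers, 4 of which were tested. Hba2, an alpha globin, was called higher in ZF against ZL (1.44, adjusted p = 0.0497) and in ZF-SGLT2i against ZL (1.67, adjusted p = 0.0194), and it was highest, at 31.9 normalized counts, in ZF-SGLT2i rat 6. With quantile normalization no blood marker was called in the first comparison and 2 were in the second. Slc4a1, the list's gene with the most counts, is shared by red cells and intercalated cells and was not called. The part of residual blood in the class II levels was not tested.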

How the data were processed

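The study sequenced renal cortex RNA of 12 rats as rRNA-depleted, directional, paired-end libraries. Per the labels, the submitters' processing notes name Trimmomatic 0.38, RSEM 1.3.0, Bowtie2, edgeR and the rn6 build. The deposited signal values are the authors' normalized counts. They gave back whole reads for every gene (100%, relative tolerance 1e-06), on which the count tests were run. No rats of a group were duplicates. Nothing says how reads shared between similar RT1 genes were divided, or that rats of a group came from separate litters or runs, so p-values measure the spread between these rats.

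Limma 3.58.1 (R 4.3.3) fitted the 3 groups together on log2(value + 1), with eBayes and its trend option and two-sided p-values, in the 11633 genes that reached a value of 1 in 4 rats or more. Benjamini-Hochberg adjustment covered all of them. Fold changes are on this scale, which understates those of low genes. Single genes and ratios were compared with the exact permutation test (70 assignments, two-sided). Alternatives were a pseudocount of 0.1 or 5, no filter, a mean value of at least 10, median ratio scaling, quantile normalization, only the groups compared, the rat number as a term, array quality weights, edgeR 4.0.16, DESeq2 1.42.0 and leaving out each rat in turn. The fits were checked on simulated data.

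The members, lists and tests were chosen with earlier results of these data known. Named are all class II genes, from each list the called genes with the largest changes and the gene with the most counts, the promoter factors, interferon gamma genes and immune markers near 0, and the 10 genes most like the members. Some of these genes are not reported here. Promoters and gene order are from RefSeq on GRCr8, not the rn6 build of the counts.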

Additional observations from a re-analysis of the deposited data

Results flagged for a closer look

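Single rats that stood apart from the other 3 of their group by Dixon's test at the 95% level were counted over the named genes. There were 16 of 216 groups, where chance gives about 1 in 20, or 10.8. Of the class II genes, Cd74 was high in ZL rat 1 at 734 normalized counts, with the others at 612 to 619, and low in ZF-SGLT2i rat 6 at 579, with the others at 803 to 817. In the same ZF-SGLT2i rat RT1-Da was low at 82.4 (others 116 to 120.3), RT1-Ba at 70.2 (102 to 106) and Ciita at 12.8 (16.1 to 16.7). Retsat, a gene outside the list whose levels resembled those of the members, was also low in that rat at 72.8 (85.6 to 88.0). Among promoter factors Creb1 was low in ZL rat 1 at 10.50 normalized counts. Among immune and endothelial markers Cd14 was low in ZL rat 3 at 3.74, Zbtb46 low in ZF rat 4 at 10.0 and Ehd3 high in ZF rat 5 at 60.8. Among tubular markers Spp1 was high in ZL rat 2 at 178 and Slc22a6 low in ZL rat 4 at 525. Among podocyte markers Nphs1 at 173 and Synpo at 157 were high in ZL rat 2, and Nphs1 at 173 and Podxl at 881 were low in ZF-SGLT2i rat 2.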

How the results depend on the processing

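Over the settings other than leaving out a rat, 272 of 294 fold changes of the members and RT1-DOb kept their direction and their side of the threshold, as did 309 of 324 with 1 rat left out. In ZF against ZL, 1 member was called instead of 0 with quantile normalization (Cd74, 0.45), array quality weights (RT1-DMa, 0.28), edgeR (RT1-DMa, 0.31) and DESeq2 (RT1-DMa, 0.31), and 0 to 1 with 1 rat left out. In ZF-SGLT2i against ZF it was 0 to 1 with 1 rat left out, and in ZF-SGLT2i against ZL 2 with quantile normalization (RT1-DMa and Cd74) and 1 to 2 with 1 rat left out. Quantile normalization also moved the split of all calls in ZF against ZL from 953 higher and 1232 lower to 1103 and 942. Over all genes, ZF-SGLT2i against ZF gave 366 calls, 689 with array quality weights and 641 with DESeq2, and leaving out 1 rat gave 1384 to 2453 calls in ZF against ZL, 176 to 569 in ZF-SGLT2i against ZF and 2238 to 3302 in ZF-SGLT2i against ZL. The highest of the second range was without ZF rat 5. Rat numbers do not pair the rats, since same-numbered rats correlated at -0.38 to 0.25 in their deviations. With the rat number as a block, calls over all genes fell to 807, 223 and 1502, while 4 members were called in ZF against ZL (Cd74, RT1-Da, RT1-Db1 and RT1-Ba) and 4 in ZF-SGLT2i against ZL (Cd74, RT1-Ba, RT1-DMa and RT1-DMb), and RT1-DOb lost its call against ZF (adjusted p = 0.0549 in limma). Directions that turned were of differences near 0. Cd74 in ZF-SGLT2i against ZF became 0.0025 with quantile normalization, 0.0016 with the block and 0.031 with weights. In ZF-SGLT2i against ZL, RT1-Da became 0.054 with quantile normalization and 0.18 with the block, and with the block RT1-Db1 became 0.072, RT1-Bb 0.0053 and Ciita 0.052. RT1-DMb in ZF against ZL became -0.022 with weights. With 1 rat left out the ranges that crossed 0 were -0.12 to 0.10 for Cd74 and -0.19 to 0.054 for RT1-Ba in ZF-SGLT2i against ZF, -0.10 to 0.11 for RT1-Da and -0.17 to 0.0092 for RT1-Db1 in ZF-SGLT2i against ZL, and -0.057 to 0.11 for RT1-DMb in ZF against ZL. The cause of these changes was not tested. Depth limits RT1-DOb, with 12 to 36 reads per rat, and left RT1-DOa and RT1-Ha untested.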
